A study of Danio rerio with 6 samples.

Results

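The subject is a group of 6 zebrafish (Danio rerio) genes that are not chaperones and whose transcripts were lower together with those of heat shock genes in sorted macrophages of cxcr3.2 mutant larvae: RHBDD1, ZFAND2B, MINDY3, MLF1, CHCHD2 and mknk1. They were named by Ensembl ID, and all 6 of them were found among the 31962 genes of the deposited count tables. Their choice rested on earlier results of these data: their levels in mutant against wild type libraries, and their order among the wild type libraries beside that of summed hsp70. Both quantities are therefore given as descriptions, with no test. All 6 passed the filter on low counts in the table of 16499 tested genes, and by p they ranked 5th to 13th among the genes with a negative fold change whose mean log2 CPM (counts scaled to library size) was 1 or more. The libraries were bulk polyA RNA of red cells sorted by flow cytometry from larvae of the mpeg1:mCherryF line, in which the promoter of the macrophage gene mpeg1 drives a red reporter. There were 3 wild type libraries (cxcr3.2+/+) and 3 libraries homozygous for a mutation of the chemokine receptor gene cxcr3.2 (cxcr3.2-/-), each from its own pool of 150 to 200 larvae, aged 6 days by one label and 5 days by another. Larvae of both genotypes carried the reporter, no infection or other treatment is named, and all were dissociated before sorting.

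When proteins misfold, heat shock factors bind short repeats in promoters and switch on a set of genes. Chaperones such as Hsp70 and the small heat shock protein Hspb1 are the best known products of this response, which tissue dissociation can also induce. The set also reaches genes of other kinds, among them polyubiquitin, whose product tags damaged proteins for the proteasome. In mammalian cells, RHBDD1 is a rhomboid protease of the endoplasmic reticulum (ER) that cleaves membrane proteins for degradation, ZFAND2B binds ubiquitin and the proteasome, and MINDY3 removes ubiquitin. MLF1 was first found as a fusion partner in myeloid leukaemia, CHCHD2 lies in the intermembrane space of mitochondria and can act in the nucleus under stress, and mknk1 encodes a kinase that phosphorylates the translation factor eIF4E.

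Total counts per library ran from 6239470 to 9607009. The transcript of the mutated gene, cxcr3.2 (ENSDARG00000041041), ran from 155 to 190.5 CPM in the wild type and from 154 to 204 CPM in the mutant (edgeR adjusted p = 0.984, log2 fold change 0.01, SE 0.160), so this level does not tell the genotypes apart, and reads over the mutation itself were not used here. The 6 genes had 1057 to 6586 reads in each wild type library and 69 to 1126 in each mutant library. Macrophage markers were present, with 13 of 13 matched genes tested and a summed level of 4829 to 6072 CPM in the wild type and 8338 to 8656 CPM in the mutant. The highest of them was apoeb, at 2415 ± 402 CPM in the wild type and 4996 ± 482 CPM in the mutant. It was the only 1 of the 13 with an edgeR adjusted p under 0.05 (0.00983). The list had 15 symbols, of which spi1b, mfap4, ctsba and lgals3bpb gave no matched gene, while mpeg1 gave 3. Outside the 13 and named after their values were seen, 2 genes named SPI1 and MFAP4 were called higher. SPI1 (ENSDARG00000000767) rose from 361 to 560 CPM (edgeR adjusted p = 0.0487). A gene named MFAP4 (ENSDARG00000088745) rose from 371 to 643 CPM (edgeR adjusted p = 0.0343). Of the 13, 5 had a negative log2 fold change, among them all 3 genes named MPEG1 (-1.26, -0.16 and -0.47), so the sums do not speak for each marker. Epidermal markers were also high, at 3923 to 4676 CPM in the wild type and 3314 to 3520 CPM in the mutant. For both lists the genotypes did not overlap, while the muscle list reached 974 CPM in mutant replicate 2 and at most 83.2 CPM in any other library. Neutrophil, neural, erythroid and endothelial lists summed to at most 593, 101, 131 and 49.2 CPM in the wild type and 1243, 239.9, 211 and 41.6 CPM in the mutant. These sums rest on 5, 8, 3 and 5 tested genes, from lists of 7, 10, 6 and 5 symbols. The muscle sum rests on 6, from a list of 10. Listed symbols without a matched gene, mpx among them, are not in the sums. The part of cell composition in the values below was not tested, and in bulk RNA fewer cells of a type and less RNA per cell cannot be told apart. Levels are CPM scaled by TMM (trimmed mean of M-values), errors are SD over 3 libraries, and fold changes set mutant against wild type.

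All 6 genes were lower in every mutant library than in any wild type library, and the differences ran from 3.34-fold for mknk1 to 15.8-fold for MINDY3. Of all tested genes, 10.4% were lower in the mutant with no overlap and 10.2% higher, and 0.885% were called lower and 0.309% higher by edgeR's quasi-likelihood test at an adjusted p of 0.05. Since the genes were chosen on this contrast, nothing is read from their count against these shares. With library totals as the only scaling, the median log2 fold change of all genes moved from -0.03 to 0.24, the calls from 146 lower and 51 higher to 117 lower and 217 higher, and the smallest of the 6 differences was 2.76-fold. DESeq2 called 468 lower and 463 higher. Leaving out any 1 library gave 43 (without wild type replicate 3) to 98 lower genes (without wild type replicate 1) and 3 to 11 higher ones.

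The genes linked to protein degradation included the largest difference of the 6. RHBDD1 (ENSDARG00000021046), the ER rhomboid protease gene, stood at 132, 259.6 and 201 CPM in the wild type (replicates 1, 2 and 3, the order used throughout) and at 16.8, 16.2 and 11.5 CPM in the mutant. The lowest wild type library was 7.83-fold above the highest mutant library, and the log2 fold change was -3.73 (SE 0.291), or 13.3-fold lower (198 ± 64.0 CPM against 14.9 ± 2.90 CPM, n = 3 each).

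MINDY3 (ENSDARG00000028715), the deubiquitinase gene, stood at 132, 248 and 183 CPM in the wild type and 6.92, 11.9 and 16.7 CPM in the mutant. Wild type replicate 2 was again the highest, and the mutant libraries differed 2.42-fold among themselves, on 69, 87 and 177 reads. The log2 fold change was -3.98 (SE 0.364; 188 ± 58.0 CPM against 11.9 ± 4.91 CPM).

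ZFAND2B (ENSDARG00000103511), the gene of the ubiquitin and proteasome binding protein, stood at 508, 949 and 598 CPM in the wild type and 109, 101 and 105 CPM in the mutant. Its wild type libraries were spread 1.87-fold, whereas the mutant libraries lay within 1.09-fold of each other. The log2 fold change was -2.70 (SE 0.231), or 6.51-fold lower (685 ± 233 CPM against 105 ± 4.32 CPM).

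MLF1 (ENSDARG00000077301), the myeloid leukaemia factor gene, stood at 170.2, 319 and 221 CPM in the wild type and 14.9, 25.0 and 12.9 CPM in the mutant. Both genotypes were highest in replicate 2, a number that the labels do not give as a pairing, and the groups were separated 6.82-fold at their nearest libraries. The log2 fold change was -3.76 (SE 0.328; 237 ± 75.6 CPM against 17.6 ± 6.48 CPM).

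CHCHD2 (ENSDARG00000059304), the mitochondrial gene, stood at 157, 249.8 and 204 CPM in the wild type and 42.7, 47.3 and 48.8 CPM in the mutant. The mutant libraries were within 1.14-fold of each other, and the log2 fold change was -2.14 (SE 0.199), or 4.40-fold lower.

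The kinase gene mknk1 (ENSDARG00000018411) stood at 311, 363 and 293 CPM in the wild type and 113, 84.4 and 92.0 CPM in the mutant. It had the smallest difference of the 6 (log2 fold change -1.74, SE 0.165; 322 ± 36.0 CPM against 96.4 ± 14.7 CPM) and the smallest spread among wild type libraries, a coefficient of variation of 11.2% against 22.9% to 34.0% for the other 5.

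**Figure D1:**
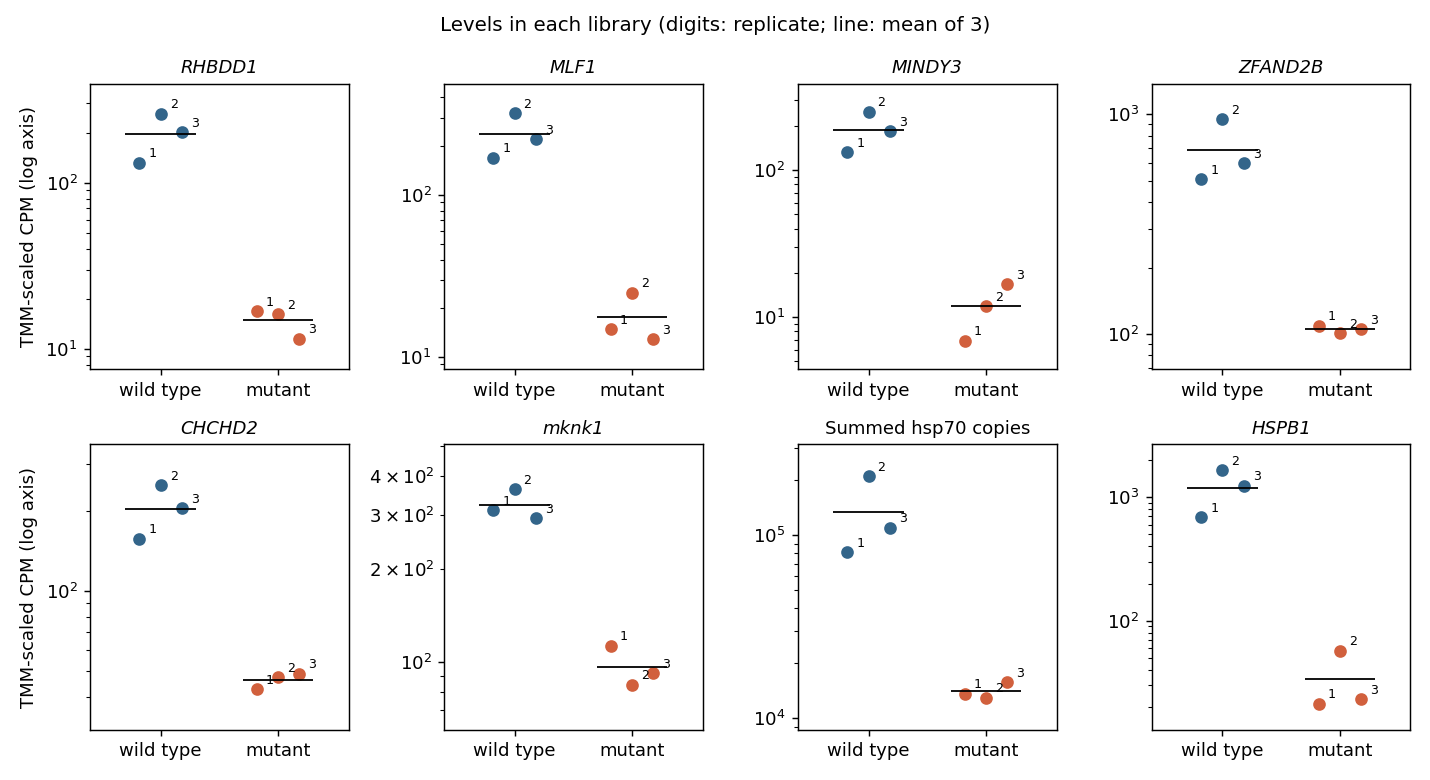
TMM-scaled CPM (log axis, own scale in each panel) of the 6 genes, of 4 summed hsp70 copies and of HSPB1 in each library, with wild type in blue, mutant in orange, the replicate number beside each point and the mean of 3 as a line. In every panel the 3 mutant points lie below the 3 wild type points, and wild type replicate 2 is the highest point.

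The wild type libraries differed among themselves in heat shock level, and 5 of the 6 genes had the same order of libraries as summed hsp70. HSPA2, hsp70l, hsp70.3 and hsp70.1, 4 copies whose reads may be assigned to one another, together reached 80642 CPM in wild type replicate 1, 209630.4 in replicate 2 and 109662 in replicate 3. The order was thus replicate 2, then 3, then 1, and HSPB1, HSPH1 and the sum of 45 heat shock reference genes gave the same one. That sum (117875, 277354 and 151505 CPM) contains the 4 hsp70 copies, HSPB1 and HSPH1, so its order is not independent of theirs. RHBDD1, MLF1, MINDY3, ZFAND2B and CHCHD2 had this order, as did 16.7% of all tested genes, while mknk1 ran from replicate 2 to 1 to 3. Replicate 2 was the highest for all 6 and for 34.0% of all tested genes. The rule used this order, so it supports nothing here.

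For mknk1 the order depended on the scaling. Scaled by library totals alone it stood at 303, 299.9 and 271 CPM in the wild type, with replicate 1 the highest, and the other 5 genes kept their order. Under that scaling 10.7% of tested genes had the order of summed hsp70 and 22.6% were highest in replicate 2.

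Between wild type replicates 1 and 2 the 6 genes lay within the range of the called chaperones or below it. From wild type replicate 1 to replicate 2, summed hsp70 was 2.60-fold higher, HSPB1 2.41-fold and HSPH1, a nucleotide exchange factor of Hsp70, 2.15-fold. The same ratio was 1.97 for RHBDD1, 1.88 for MINDY3, 1.87 for MLF1 and for ZFAND2B, 1.6 for CHCHD2 and 1.17 for mknk1, against a median of 1.01 over all tested genes. Over the 23 lower genes with a chaperone or co-chaperone name the ratio ran from 1.3 to 3.98 (median 2.38), and 7 of them, HSPA4 and STIP1 included, lay between the lowest and the highest of the 6 genes and 16 above. Between the genotypes, HSPB1 was 35.5-fold and HSPH1 30.2-fold lower in the mutant, more than any of the 6. Summed hsp70 was 9.44-fold lower (133312 ± 67668 CPM against 14128 ± 1465 CPM), less than RHBDD1, MLF1 and MINDY3 (13.3-fold to 15.8-fold) and more than ZFAND2B, CHCHD2 and mknk1 (3.34-fold to 6.51-fold). Of the 23 chaperones, 16 lay within the range of the 6 genes, 3 above and 4 below. These 23 were taken because they were called lower, so chaperones with small differences are not among them. Of 45 tested heat shock reference genes, 20 were called lower (44.4%). These ratios were not tested against each other.

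The order of the mutant libraries was not used to choose the genes. How many of the 6 shared the order of a heat shock reference there depended on the reference. Summed hsp70 stood at 13644, 12965 and 15773 CPM in the mutant, a spread of 1.22-fold, so that its order was replicate 3, then 1, then 2. That order held for 15.5% of all tested genes and for 0 of the 6, which for so few genes is near that share, and nothing is read from it. HSPH1 had the same order as summed hsp70. HSPB1, at 21.2, 57.1 and 23.1 CPM, had an order of its own that 0 of the 6 and 17.2% of tested genes shared. The sum of the 45 reference genes, which contains the hsp70 copies, HSPB1 and HSPH1, was spread 1.11-fold. It ran from replicate 3 to 2 to 1, an order that MINDY3 and CHCHD2 (2 of the 6) and 17.4% of tested genes shared. The root mean square difference from the summed hsp70 profile over the mutant libraries, on the log2 scale, was 0.356 for RHBDD1, 0.449 for MINDY3 and 0.509 for MLF1, where the median of 14861 genes was 0.352. It was 0.109 for CHCHD2 and 0.115 for ZFAND2B, whose mutant levels were nearly flat (spread 1.14-fold and 1.09-fold), as those of hsp70 were. For mknk1, with mutant levels spread 1.34-fold, it was 0.210. Of the 14861 genes, 7.35% were closer to the hsp70 profile than CHCHD2, 8.3% than ZFAND2B and 25.1% than mknk1. The shares were 50.6% for RHBDD1, 62.3% for MINDY3 and 68.3% for MLF1. A relation with hsp70 within the mutant was not tested, since there are 3 libraries over a narrow range of hsp70.

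**Figure D2:**
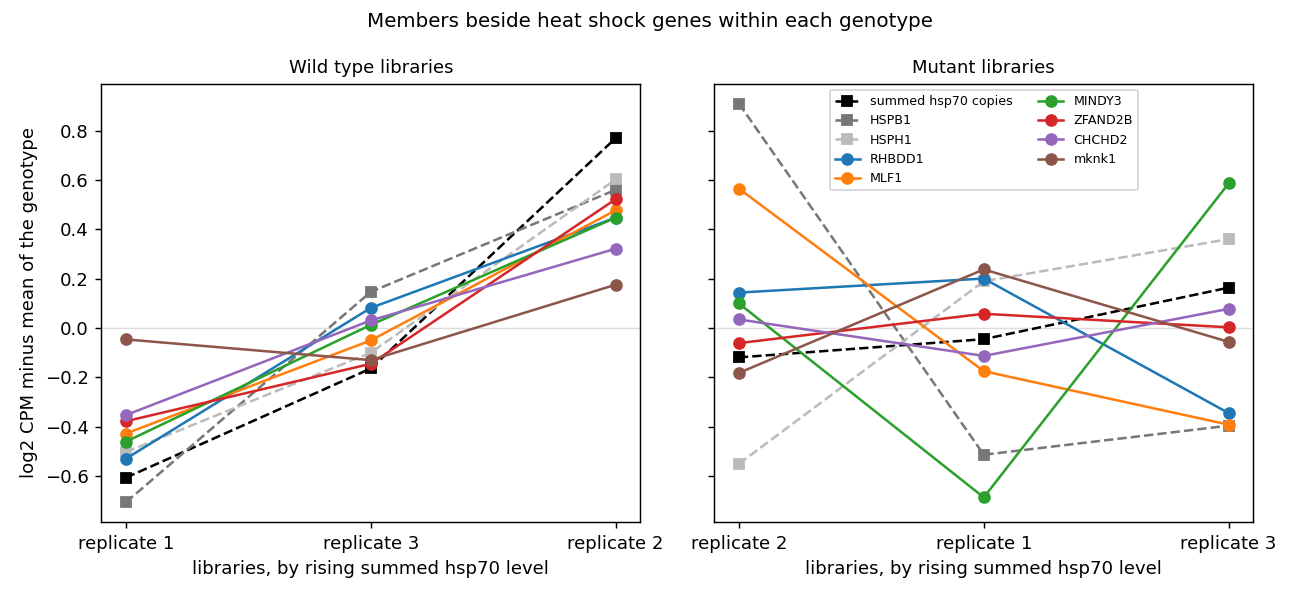
Log2 CPM of each gene minus its mean over the 3 libraries of the genotype, for wild type (left) and mutant (right), with libraries placed by rising summed hsp70 level; dashed lines with squares are heat shock genes and solid lines with circles the 6 genes. On the left every line except that of mknk1 rises from replicate 1 to 3 to 2. On the right the black dashed line of summed hsp70 and the lines of CHCHD2 and ZFAND2B are nearly flat, and none of the 6 solid lines has its order of libraries.

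Over all 6 libraries the 6 profiles lay at a range of distances from each other, by a measure that does not separate size from shape. RHBDD1 and MLF1 were the closest pair, with a root mean square difference of 0.241 between their centred log2 profiles, and MINDY3 and mknk1 the most distant, at 1.24. CHCHD2 lay 0.296 from mknk1 and 0.304 from ZFAND2B. Summed hsp70 was nearest to ZFAND2B (0.287) and farthest from mknk1 (0.782). These distances, over 6 libraries of 2 genotypes, mix the size of the genotype difference with differences among libraries of the same genotype. MINDY3 and MLF1, with log2 fold changes of -3.98 and -3.76, lay 0.498 apart.

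The 3 nearest genes of each member by this measure, among 14861 genes whose mean log2 CPM was 1 or more, came to 16 genes. Of these, 2 were members and 3 had the name of a chaperone or co-chaperone. Of the 14 that are not members, 10 were called lower, against 0.885% of all tested genes. The measure holds the genotype difference by which the members were chosen, so genes near them are lower by construction. Neither count supports anything here. RHBDD1 was nearest to hspa1b, an hsp70 family gene (27.5, 69.5 and 43.2 CPM in wild type, 4.51, 3.43 and 2.46 CPM in the mutant, distance 0.155). ZFAND2B was nearest to NLN, a peptidase gene (0.165, at most 12.8 CPM). Next came HSPA4, an exchange factor of Hsp70 (0.175), and STIP1, a co-chaperone of Hsp70 and Hsp90 (0.176). STIP1 stood at 1136, 1980.5 and 1394 CPM in the wild type and 176, 199 and 198 CPM in the mutant.

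For the other 4 genes, as for ZFAND2B, the single nearest gene had no chaperone name. MLF1 was nearest to QSOX1, a sulfhydryl oxidase gene (0.206), which was at 5.76 CPM or less throughout, followed by RHBDD1 (0.241) and the chaperone gene hspa1b (0.350). MINDY3 was nearest to WBP2 (0.254), followed by amy2al1 (0.331) and trim65 (0.377, at most 6.63 CPM). WBP2 encodes a transcriptional coactivator and stood at 307, 763 and 401 CPM in the wild type and 20.6, 21.9 and 41.0 CPM in the mutant. CHCHD2 was nearest to hoxc3a (0.0345, at most 8.65 CPM), SLC30A8, a zinc transporter gene (0.100), and CCNG1, a cyclin gene (0.107; 1514, 2766 and 1859 CPM in wild type, 418, 483 and 431 CPM in the mutant). The gene mknk1 was nearest to VRTN (0.131, at most 13.4 CPM), an unnamed gene (ENSDARG00000101112, 0.158, at most 6.05 CPM) and NFE2L1 (0.158). The product of NFE2L1 activates proteasome genes in mammalian cells. NFE2L1 stood at 27.5, 32.1 and 23.1 CPM in the wild type and 8.52, 5.21 and 7.37 CPM in the mutant.

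Relatives of the 6 genes mostly did not share their difference. Of 43 tested genes of the same families, 1 was lower in the mutant and none higher (edgeR, adjusted p of 0.05), where 0.885% of all tested genes were lower, and the median log2 fold change was 0.03 against -0.03 over all genes. At an unadjusted p under 0.05, 6 were lower and 2 higher, and DESeq2 called 3 lower and 0 higher. At that unadjusted p, 7.17% of all tested genes were lower and 7.04% higher, and these shares belong beside each unadjusted count below. The 1 call was a gene named MKNK2 (ENSDARG00000015164), a paralog of mknk1 that encodes the other eIF4E kinase. It stood at 1567, 2768 and 1926 CPM in the wild type and 835, 739 and 877 CPM in the mutant, in the wild type order of hsp70 and in its mutant order too. It fell 2.55-fold (log2 fold change -1.35, SE 0.197, adjusted p = 0.0173 in edgeR, lower in 3 of 3 mutant libraries), with an adjusted p of 0.0089 to 0.0993 when any 1 library was left out. The call was lost without wild type replicate 3 (0.0711), without mutant replicate 1 (0.0641), 2 (0.0993) or 3 (0.0770). The second gene named MKNK2 (ENSDARG00000011373) stood at 73.0, 71.3 and 85.1 CPM in the wild type and 85.6, 49.7 and 32.4 CPM in the mutant (log2 fold change -0.45, adjusted p = 0.610 in edgeR).

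Among relatives of ZFAND2B, both zfand5 genes, whose products bind ubiquitin and the proteasome in mammals, came close without passing. The level of zfand5a was 434, 674 and 518 CPM in the wild type and 283, 324 and 249.7 CPM in the mutant (edgeR adjusted p = 0.0548, log2 fold change -0.92, SE 0.183), and zfand5b stood at 408, 491 and 396 CPM against 296, 238 and 267 CPM (edgeR adjusted p = 0.0630, log2 fold change -0.69). DESeq2 called 2 genes of this family lower. ZFAND1, ZFAND3, ZFAND4 and zfand6 had log2 fold changes of -0.39, 0.52, -1.29 and -0.09, with adjusted p of 0.339 or more in edgeR. ZFAND2A, a near paralog of ZFAND2B, was not among the matched genes of this family, so nothing is known here of its level.

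The relatives of the other 4 genes gave no call in edgeR. MLF2 stood at 24.6, 25.9 and 13.9 CPM in the wild type and 30.5, 33.1 and 20.4 CPM in the mutant (log2 fold change 0.38, SE 0.313), opposite in sign to MLF1. MINDY1, which also removes ubiquitin, had a log2 fold change of 0.11 (SE 0.305) and MINDY2 of 0.05 (SE 1.38). For CHCHD10, the closest paralog of CHCHD2, the levels were 31.6 ± 2.94 CPM in the wild type and 22.6 ± 3.87 CPM in the mutant (edgeR adjusted p = 0.399, log2 fold change -0.48, SE 0.230). Of the rhomboid relatives, rhbdd2, RHBDD3, PARL and DERL1 to DERL3 had log2 fold changes of 0.96, 0.10, -0.04, 0.06, -0.45 and -0.47, each with an adjusted p of 0.324 or more in edgeR. RHBDL2, another rhomboid protease gene, named after its values were seen, was lower without overlap (14.2, 17.2 and 10.1 CPM against 6.61, 7.27 and 7.84 CPM) and did not pass (edgeR adjusted p = 0.248, log2 fold change -0.93, SE 0.330). At an unadjusted p under 0.05, 3 of the 13 rhomboid relatives were lower and 0 higher (7.17% and 7.04% of all tested genes). RHBDL3 had 23, 13 and 12 reads in wild type and 0, 1 and 0 reads in mutant libraries, and no fold is given for it.

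**Figure D3:**
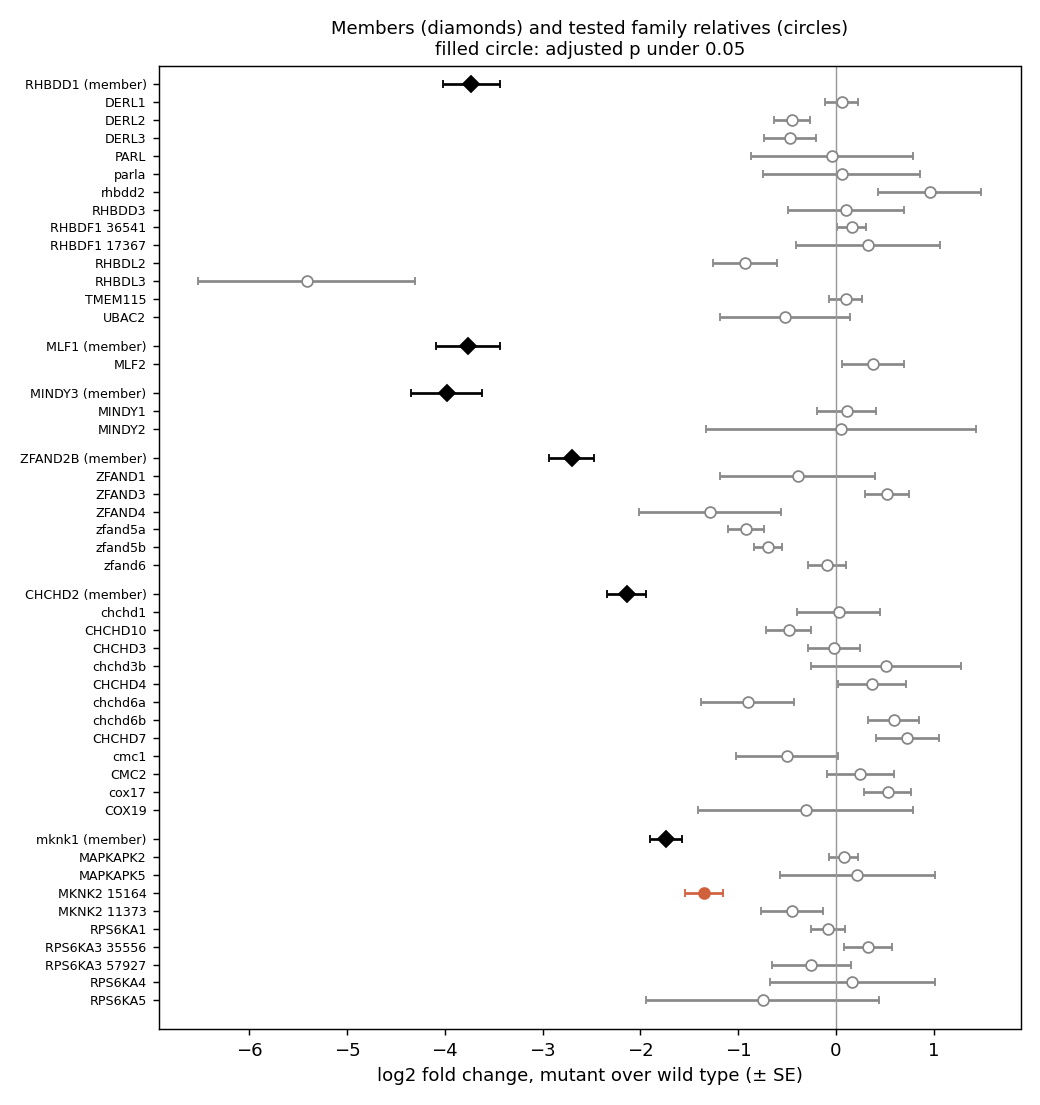
Log2 fold change of mutant over wild type with its SE for the 6 genes (black diamonds) and their 43 tested family relatives (circles), grouped by family, with the last 5 digits of the Ensembl ID where a symbol is shared; the filled circle is the gene called by edgeR. The diamonds lie between -1.74 and -3.98 and most circles near 0, and the far left circle, RHBDL3, rests on 1 read in the mutant libraries.

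In a list of genes other than chaperones that heat or stress is known to induce in mammalian cells, 5 of 30 tested genes were lower in the mutant (16.7%, against 0.885% of all tested genes) and none was higher, with a median log2 fold change of -0.45 (-0.17 with library totals only). At an unadjusted p under 0.05, 14 were lower and 2 higher (7.17% and 7.04% of all tested genes). The 5 genes called lower at the adjusted p were ppp1r15a, UBB, ubb, SQSTM1 and ATF3, the last named after its values were seen. The gene ppp1r15a, whose product directs dephosphorylation of eIF2α, stood at 337, 503 and 391 CPM in the wild type and 137, 135 and 148 CPM in the mutant and fell 2.93-fold (adjusted p = 0.00459 in edgeR, at most 0.0407 over all alternatives). The polyubiquitin genes UBB (ENSDARG00000002369) and ubb (ENSDARG00000093313) are near-identical copies and uncertain one by one. Their sum was 4822, 10649 and 5626 CPM in the wild type and 2019, 1797 and 1793 CPM in the mutant, a 3.76-fold difference, and wild type replicate 2 stood highest, as for hsp70. Singly they had adjusted p of 0.00983 (up to 0.0701 over the alternatives) and 0.0199 (up to 0.105) in edgeR. SQSTM1, the autophagy cargo adaptor, fell 2.39-fold with an adjusted p of 0.0107 (up to 0.0759), and ATF3, a stress transcription factor, fell 1.70-fold with 0.0286 (up to 0.132; 0.0827 with library totals only). Without any 1 library, 1 to 6 genes of the list were called lower (1 without mutant replicate 2 or 3, 2 without wild type replicate 3, 3 without mutant replicate 1), and DESeq2 called 9 lower and 1 higher. Summed hsp70 differed between the genotypes together with these genes, and its part was not tested.

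Genes of ubiquitin removal, the pathway of MINDY3, were lower in 4 of 75 cases (5.33%, against 0.885% of all tested genes), and none was higher (0.309%). The median log2 fold change was -0.06 (0.21 with library totals only). At an unadjusted p under 0.05, 10 were lower and 6 higher (7.17% and 7.04% of all tested genes), and DESeq2 called 6 lower and 3 higher. The called genes of the list were the polyubiquitin pair above and the deubiquitinase genes USP2 and USP19, the latter anchored in the ER in mammalian cells. The list did not hold every gene with a USP name. USP31, outside the list and named after its values were seen, was also called lower (edgeR adjusted p = 0.0109, log2 fold change -5.89, SE 0.784). It stood at 102, 139.8 and 71.8 CPM in the wild type and 1.9, 3.7 and 0 CPM in the mutant. USP19 stood at 177, 295 and 219.8 CPM in the wild type and 108, 74.2 and 101 CPM in the mutant (edgeR adjusted p = 0.0332, log2 fold change -1.29, SE 0.224). USP2 was at 45.0, 62.7 and 48.7 CPM against 21.1, 17.1 and 13.1 CPM (edgeR adjusted p = 0.0243, log2 fold change -1.6, SE 0.256). The USP19 call was lost on leaving out any library except wild type replicate 1, and the USP2 call any except mutant replicate 1 (adjusted p of up to 0.133 and 0.125 in edgeR, without wild type replicate 2). The list's count was 2 without it, 1 without wild type replicate 3, 2 without mutant replicate 1 and 0 without mutant replicate 2 or 3.

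Around eIF4E, the pathway of mknk1, 2 of 43 genes were lower (4.65%, against 0.885% of all tested genes) and none higher (0.309%), with a median of 0.08. Of these, MKNK2 is the family call above, which most runs with 1 library left out lost. It was also lost with the replicate block (adjusted p = 0.0523 in edgeR). The other was PDCD4, whose product inhibits the helicase eIF4A in mammalian cells. PDCD4 stood at 797, 1336 and 932 CPM in the wild type and 187, 218 and 285 CPM in the mutant and fell 4.45-fold (log2 fold change -2.15, SE 0.228, adjusted p = 0.00398 in edgeR), and it stayed called with any 1 library left out (adjusted p of 0.00506 to 0.0383). At an unadjusted p under 0.05, 3 genes of the list were lower and 11 higher (7.17% and 7.04% of all tested genes). DESeq2 called 2 lower and 3 higher. With 1 library left out the list's count was 1 without wild type replicate 3 or without any 1 of the mutant replicates.

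ER-associated degradation, in which RHBDD1 and ZFAND2B act, gave 0 calls among 45 genes in edgeR, with a median of -0.13 (0.14 with library totals only). Over all tested genes, 0.885% were called lower and 0.309% higher. At an unadjusted p under 0.05, 8 were lower and 4 higher (7.17% and 7.04% of all tested genes), and DESeq2 called 3 lower.

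Proteins of the mitochondrial inner membrane and intermembrane space, where CHCHD2 lies, gave 0 calls among 48 genes in edgeR (2 lower and 4 higher at an unadjusted p under 0.05, 1 lower and 2 higher in DESeq2), with a median of 0.13. Over all tested genes, edgeR called 0.885% lower and 0.309% higher. Without wild type replicate 1, 1 gene of this list was called lower.

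The heat shock factor genes and their binding proteins gave 0 calls among 5 in edgeR and in DESeq2, with 1 higher at an unadjusted p under 0.05. In edgeR 0.885% of all tested genes were called lower and 0.309% higher. The transcript of hsf1, the main factor of the response, was at 15.9, 10.4 and 8.84 CPM in the wild type and 16.7, 16.5 and 21.0 CPM in the mutant (edgeR adjusted p = 0.428, log2 fold change 0.62, SE 0.313). Its sign was opposite to that of the 6 genes, and a transcript level does not show the activity of the factor.

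**Figure D4:**
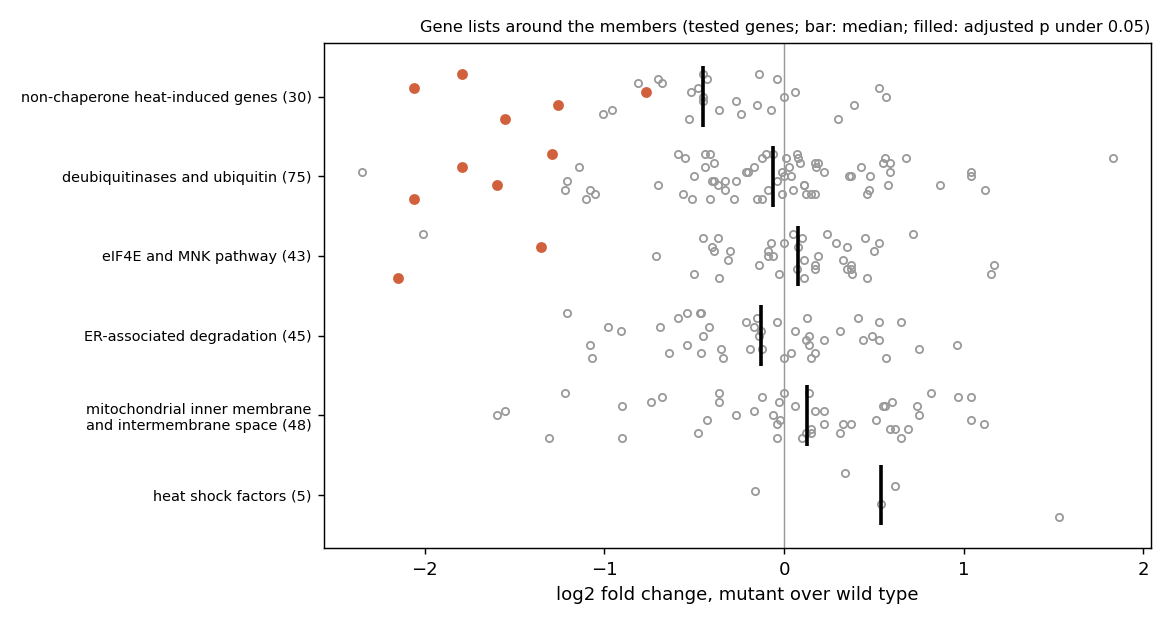
Log2 fold change of mutant over wild type for each tested gene of 6 lists (number tested in brackets; a gene can be in 2 lists; vertical scatter carries no value), with the median as a bar and genes called by edgeR filled. Filled points appear in the upper 3 lists only, all to the left of 0, and the medians run from -0.45 to 0.54.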

How the data were processed

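The authors deposited, for each of the 6 libraries, unnormalized counts of reads for 31962 Ensembl genes. Per the labels' protocols, RNA was reverse transcribed and amplified with a low-input kit and single reads were aligned to GRCz10. Bowtie and TopHat are listed, per the submitters' processing notes. For the counting tool and its strand and multimapping settings nothing is given in the sources used here. Amplified reads are not independent molecules, so read numbers overstate the precision.

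Genes were filtered by filterByExpr of edgeR 4.0.16 under R 4.3.3 (minimum count 10, minimum total 15), scaled by TMM and compared by genotype alone with the two-sided quasi-likelihood test. P-values were adjusted by Benjamini-Hochberg over 16499 genes, and an SE is the size of the log2 fold change divided by the square root of F. The labels call the pools independent. Alternatives were DESeq2 1.42.0, other scalings, other filters, a replicate block and each library left out. The labels name no batch or pairing. Over all genes, same-numbered libraries did not deviate together (r from -0.0293 to 0.0024), which cannot exclude a batch that they share. Replicates differed by more than sampling noise, with a chi-square per gene of 16.5 or more. The test was checked on simulated data.

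The genes and all lists were chosen with earlier results of these data known. Named are the 6 genes, their nearest paralogs, up to 4 called genes of each list by p, and the 3 nearest genes by root mean square difference of centred log2 CPM (prior count 2). Symbols came from a table naming 26121 IDs, listed symbols were matched regardless of case and paralog suffix, and those with more than 3 IDs were dropped. Coordinates are not given, since the position table is for another assembly, and promoter and protein sequences were not used here.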

Additional observations from a re-analysis of the deposited data

How the results depend on the processing

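All 6 genes stayed lower in the mutant under every alternative run. Their log2 fold changes with any 1 library left out were -3.95 to -3.48 for RHBDD1, -4.09 to -3.48 for MLF1, -4.32 to -3.70 for MINDY3, -2.87 to -2.38 for ZFAND2B, -2.29 to -1.95 for CHCHD2 and -1.86 to -1.64 for mknk1. With library totals only, CHCHD2 moved to -1.85 and mknk1 to -1.46, 217 genes were higher, and 5 genes, not 6, were highest in wild type replicate 2. The counts of lower and higher genes were 468 and 463 with DESeq2, 281 and 144 with at least 10 counts in every library, 84 and 13 with the replicate block, and 43 to 98 and 3 to 11 with 1 library left out.

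For the lists the lower calls were 3 (families), 3 (ER-associated degradation), 1 (mitochondrial) and 9 (heat-induced) with DESeq2, 3, 1, 1 and 9 with the stricter filter, and 2 (families) and 1 (mitochondrial) with no count filter. With the replicate block they were 0 (families), 2 (ubiquitin removal) and 1 (eIF4E). With 1 library left out they ran from 0 to 1 (families), 0 to 4 (ubiquitin removal), 1 to 2 (eIF4E), 0 to 1 (mitochondrial) and 1 to 6 (heat-induced). With library totals only, the medians of the lists were 0.29 (families), 0.14 (ER-associated degradation), 0.21 (ubiquitin removal), 0.34 (eIF4E), 0.39 (mitochondrial), -0.17 (heat-induced) and 0.81 (heat shock factors), beside 0.24 over all genes. Of 117 further values for 9 called list genes, 33 lost the call and none changed sign. The cause of these changes was not tested, beyond the smaller number of libraries or genes that an alternative has by its construction. Whether the same-numbered libraries share more than a number is not given by the labels. At 69 to 182 reads in the mutant libraries, the levels of RHBDD1, MLF1 and MINDY3 there are the least precise. The planned search for heat shock elements in promoters was not run, because no promoter sequences were at hand.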

Other observations

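The wild type order of summed hsp70 was common among other lower genes too. Of the 117 genes that were called lower and are neither among the 6 genes nor chaperones or co-chaperones by name, 82 were highest in wild type replicate 2 and 61 (52.1%) had the full order of summed hsp70. Over all tested genes these shares were 34.0% and 16.7%, and among the 51 higher genes 13 (25.5%) and 4 (7.84%). Of the 23 lower genes with a chaperone or co-chaperone name, 22 were highest there. The median ratio of wild type replicate 2 to replicate 1 was 1.35 for the 117 genes, 2.38 for the 23 and 0.976 for the higher genes. These shares come from the libraries that gave the calls and were not tested.

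Genes beside the 6 on the chromosome were compared as well, by their order in RefSeq's annotation of the assembly GRCz12tu, where 5 of the 6 were matched by symbol. None of their 20 nearest protein-coding neighbours, 2 on each side, was named as an hsp or dnaj gene. Of these, 13 were tested and 0 were called by edgeR (5 lower and 0 higher at an unadjusted p under 0.05, 2 lower and 0 higher in DESeq2), where 7.17% of all tested genes were lower and 7.04% higher at that unadjusted p. The 5 were neighbours of RHBDD1 (irs1, col4a4), MINDY3 (itga8, fam171a1) and MLF1 (gfm1). Over all 13, log2 fold changes ran from -3.09 (fam171a1, near MINDY3) to 0.89 (p2ry13, near MLF1).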
